A study of Mus musculus with 93 samples.

Results

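The genes described here encode the respiratory chain of mouse liver mitochondria. They are the genes of the deposited tables whose symbols begin with mt-Nd, mt-Co, mt-Atp, mt-Cytb, Ndufa, Ndufb, Ndufc, Ndufs, Ndufv or Uqcr, together with Sdha, Sdhb, Sdhc and Sdhd, without 3 symbols that contain -ps. The rule gave 74 of 39179 genes, 13 of them encoded in the mitochondrial genome and 61 in the nucleus. It covers more than complexes I to III. Among the mitochondrial-encoded genes 7 belong to complex I, 1 to complex III, 3 to complex IV and 2 to ATP synthase. The nuclear genes are 7 core subunits, 29 accessory subunits, 8 assembly factors and 3 copies of subunit genes for complex I, 4 subunits of complex II, 8 of complex III, and Ndufa4, which is now placed with complex IV, with its paralogue Ndufa4l2. Cyc1, the cytochrome c1 subunit of complex III, is outside the rule.

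RNA-seq was done on livers of C57BL/6 mice that were heterozygous for an Htt knock-in allele of CAG length 20, 50, 92 or 140 (Q20, Q50, Q92 and Q140), and of wild types. Both sexes were taken at 10 and at 6 months of age, and RNA was extracted from frozen tissue. Q140 and Q92 mice were housed among themselves, whereas Q50 and Q20 mice shared housing with wild types (WT), so that Q140 and Q92 have no wild types of their own and are compared with Q20. Genotype or housing, sex and age made 24 groups, 21 with 4 libraries and 3 with 3 libraries, which gave 45 libraries at 10 months and 48 at 6 months, and 48 of females and 45 of males. Replicates are numbered in the labels without a statement that each is its own mouse, so the p-values rest on the spread among libraries, which may be technical. Each comparison asks whether respiratory chain transcripts differed with age, sex, CAG length or housing, and whether the mitochondrial-encoded and the nuclear genes did so to the same extent.

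The respiratory chain sits in the inner mitochondrial membrane and passes electrons from NADH (complex I) and succinate (complex II) through ubiquinone and complex III to cytochrome c and complex IV, where oxygen is reduced. Complexes I, III and IV pump protons, and ATP synthase uses the gradient. Complexes I, III and IV and ATP synthase are built from subunits of both genomes, while complex II is wholly nuclear. The mitochondrial genes are transcribed from both strands of the circular genome into long precursors that are cut at the tRNAs, whereas each nuclear gene has its own promoter. Liver is rich in mitochondria and uses them for fatty acid oxidation, gluconeogenesis and the urea cycle.

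Expected counts per library summed to between 28752184 and 46776898. Htt, the targeted gene, was detected in every library at 14.4 to 41.6 counts per 1e+06 counts (CPM), and as the allele is knocked in and not deleted its level does not check the genotype. In Q140 against Q20 mice it was lower at 10 months (log2 difference -0.53 ± 0.10, adjusted p = 0.0137) and stood at -0.33 ± 0.10 (adjusted p = 0.13) at 6 months. The summed hepatocyte markers took a median of 111493 CPM at 10 months and 103036 CPM at 6 months, while kidney markers did not exceed 0.387 CPM and muscle markers did not exceed 1.04 CPM in any library. Of the kidney markers Kap and Slc12a1 were at 0 in all libraries. The mitochondrial-encoded genes took 7.50% to 26.4% of the counts of a library, with a median of 9.26%. A pair of libraries stood apart with over 12% of counts, replicate 1 of the 10-month WT males housed with Q20 (26.4%, and the lowest depth of the series) and replicate 1 of the 6-month Q92 males (15.2%). Results are given with and without that pair where it touches them. A further 3 libraries held over 30 CPM of brain markers, up to 127 CPM in replicate 1 of the 10-month Q140 females. The WT male library with 26.4% mitochondrial counts also held 33.5 CPM of them. The numbers in the library names run in blocks that coincide with age, so age and library series cannot be told apart.

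Levels per length, as mean ± SD of the deposited FPKM (fragments per kilobase of transcript and per 1e+06 mapped fragments) over 93 libraries, set the 2 genomes far apart. The mitochondrial-encoded genes summed to a median of 96631 FPKM per library and the 61 nuclear genes to 4807 FPKM. mt-Co1, the catalytic subunit of complex IV, was the most abundant at 20113 ± 3805 FPKM. It was followed by mt-Atp6 of ATP synthase at 13513 ± 3334 FPKM, mt-Co3 at 11986 ± 3113 FPKM and mt-Co2 at 11851 ± 2797 FPKM. The SD is a spread over libraries, and differences between genes within a library were not tested. mt-Cytb, the mitochondrial-encoded subunit of complex III, stood at 7939.9 ± 1932 FPKM. The lowest were complex I genes, mt-Nd5 at 2386 ± 422 FPKM, mt-Nd4l at 2214 ± 398 FPKM and mt-Nd6 at 1845 ± 398 FPKM. mt-Nd6 is the sole protein gene read from the opposite strand of the mitochondrial genome.

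Among the nuclear genes Ndufa4 was the most abundant at 396 ± 52.4 FPKM. The next were subunits of complex III and complex I, Uqcrh at 223 ± 22.2 FPKM, Uqcrb at 197 ± 26.97 FPKM, Ndufb9 at 194 ± 17.1 FPKM and Uqcrq at 183 ± 56.8 FPKM. The complex II subunits ran from 75.5 ± 7.50 FPKM for the membrane anchor Sdhc to 175 ± 16.1 FPKM for the flavoprotein Sdha. Assembly factors, which help to build complex I and are not part of the finished enzyme, were low, with Ndufaf1 the highest at 17.2 ± 1.45 FPKM, and Ndufaf7 at 5.53 ± 0.641 FPKM and Ndufaf5 at 3.39 ± 0.464 FPKM the lowest. Ndufa4l2, known as a hypoxia-induced gene, stood at 0.844 ± 0.254 FPKM. The copies Ndufs6b (0.444 ± 0.288 FPKM) and Ndufa11b (0.0022 FPKM on average) were close to 0, and Ndufa11b was the 1 nuclear member that did not pass the filter on low counts, so 60 nuclear and 13 mitochondrial-encoded members were tested among 16126 genes.

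Some of these levels are uncertain because transcripts share sequence. The mitochondrial genes lie head to tail and some overlap, and the overlaps are shown because reads inside them belong to both genes. The following stretches of GRCm38 (mitochondrial genome, plus strand, from the GENCODE M21 transcripts) give the last bases of the first gene and the first bases of the second, with the shared bases in capitals:
mt-Atp8, chrM:7907-7969: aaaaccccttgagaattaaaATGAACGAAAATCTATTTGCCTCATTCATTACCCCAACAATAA
mt-Atp6, chrM:7927-7989: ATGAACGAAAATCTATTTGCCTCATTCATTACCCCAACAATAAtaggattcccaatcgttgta
mt-Nd4l, chrM:10147-10173: caaaatctcaacctactacaATGCTAA
mt-Nd4, chrM:10167-10193: ATGCTAAaaattattcttccctcacta
mt-Atp8 and mt-Atp6 shared 43 bases and mt-Nd4l and mt-Nd4 shared 7. mt-Nd5 and mt-Nd6 shared 14 bases on opposite strands, and the sources name no strand setting. A nuclear pseudogene on chromosome 1, Gm10222, is identical to mt-Nd4l over 294 bases and was assigned 69.7% as many counts, so the level of mt-Nd4l depends on how reads were divided. Ndufb4 and its copy Ndufb4c are identical over 390 bases, and Ndufb4c was assigned 172% of the counts of Ndufb4. Uqcr10 shares 95.8% of 191 bases with 4930481A15Rik, which had 8.61% of its counts. Among others, Ndufab1, Ndufaf2, Ndufaf7, Ndufc1, Ndufs1 and Ndufv3 carry stretches of at least 100 bases that are at least 95% identical to other genes, and 28 nuclear members overlap another annotated gene.

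Nuclear respiratory chain genes were lower at 10 months than at 6 months. In the quasi-likelihood test of edgeR, with p-values adjusted by Benjamini-Hochberg over the 16126 genes, 37 of the 60 nuclear members were lower and 0 were higher, where 13% of all genes tested were lower and 25.4% changed in either direction. The median log2 difference of the nuclear members was -0.12 and that of all genes 0.00. None of the 13 mitochondrial-encoded members passed in either direction, nor did any have an unadjusted p under 0.05 or pass in DESeq2, and their log2 differences lay between -0.02 and 0.09 (median 0.03). All 73 members had overlapping ranges in both ages. In a bulk sample fewer cells of a type and less RNA per cell cannot be told apart.

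The core subunits of complex I carry the flavin, the iron-sulphur clusters and the quinone site, and 5 of the 7 nuclear ones were lower. Ndufv1, which holds the flavin that takes electrons from NADH, had 88.0, 116 and 137 CPM (lowest, median and highest library) at 10 months and 107, 126 and 164 CPM at 6 months. The ranges overlapped, with 40 of 45 libraries of 10 months under the 6-month median, and the group mean was lower in 12 of 12 pairs of genotype and sex. The log2 difference was -0.16 ± 0.02 (standard error; adjusted p = 4.16e-07). Ndufs7, which carries the last iron-sulphur cluster before ubiquinone, had 20.5, 30.8 and 69.0 CPM at 10 months and 32.1, 38.5 and 60.97 CPM at 6 months. It was lower in 39 of 45 libraries than the 6-month median, although its highest library was one of 10 months, and the log2 difference was -0.34 ± 0.06 (adjusted p = 1.62e-06). Ndufs8 (-0.16 ± 0.04, adjusted p = 0.00168) and Ndufs3 (-0.09 ± 0.03) were lower too. Ndufs1, at 0.01 ± 0.03, did not pass.

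Accessory subunits surround that core and stabilise it, and 19 of the 29 tested for complex I were lower. Ndufc2 of the membrane arm had 29.4, 37.6 and 55.3 CPM at 10 months and 36.4, 42.5 and 61.8 CPM at 6 months, overlapping ranges with 38 of 45 libraries of 10 months under the 6-month median (log2 difference -0.21 ± 0.04, adjusted p = 7.03e-06). Ndufa7 of the matrix arm had 27.6, 42.9 and 72.5 CPM at 10 months and 39.9, 49.5 and 68.5 CPM at 6 months, again overlapping, with 41 of 45 libraries under the median of 6 months (-0.23 ± 0.04, adjusted p = 4.9e-05). Ndufa13 and Ndufa11 of the membrane arm fell by 15.4% and 12.4%. Further decreases were those of Ndufv3 (-0.14 ± 0.03), Ndufs6 (-0.15 ± 0.04) and Ndufb6 (-0.16 ± 0.04). The 10 accessory subunits that did not pass lay between -0.10 (Ndufa12) and -0.02 (Ndufb2), all on the negative side. Of the assembly factors 5 of 8 were lower. The largest decrease among them was that of Ndufaf8, a small partner of Ndufaf5 in early assembly, with 2.31, 3.84 and 8.81 CPM at 10 months and 3.49, 4.96 and 7.44 CPM at 6 months (-0.33 ± 0.07, adjusted p = 8.35e-05); its ranges overlapped and 37 of 45 libraries lay under the 6-month median. Ndufaf1, Ndufaf5 and Ndufaf7 were at 0.02, 0.01 and 0.01 and did not pass. Of the copies Ndufb4c was lower (-0.16 ± 0.04) and Ndufs6b did not pass.

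Complex III, which moves electrons from ubiquinol to cytochrome c, held the largest decrease. Uqcrq, a small accessory subunit, had 53.3, 84.3 and 296 CPM at 10 months and 91.7, 116 and 191 CPM at 6 months. The 10-month libraries were mostly low, 36 of 45 under the 6-month median, but the highest of all was the WT male library with the highest mitochondrial share. The log2 difference was -0.39 ± 0.07 (adjusted p = 4.53e-05), a decrease of 23.6%. Uqcr11 (45.1, 66.3 and 182 CPM at 10 months, 68.1, 81.2 and 139.7 CPM at 6 months) and Uqcr10 (33.6, 49.7 and 103 CPM at 10 months, 50.1, 59.7 and 103 CPM at 6 months) are further small accessory subunits. Both overlapped between ages and fell by 20.6% and 17.2% (adjusted p = 3.61e-06 and 2.61e-06). Of the core subunits Uqcrc1 had 129, 161 and 209.8 CPM at 10 months and 153, 180.0 and 257 CPM at 6 months, with 41 of 45 libraries under the median of 6 months (-0.17 ± 0.03, adjusted p = 1.14e-06). The Rieske iron-sulphur protein Uqcrfs1 was lower by a smaller amount (-0.07 ± 0.03, adjusted p = 0.043). Uqcrc2 (0.02 ± 0.02), Uqcrb (0.01 ± 0.04) and Uqcrh (-0.01 ± 0.03) did not pass, so 2 of 3 core and 3 of 5 accessory subunits were lower.

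Complex II oxidises succinate and is also an enzyme of the citric acid cycle. Its iron-sulphur subunit Sdhb (-0.12 ± 0.04, adjusted p = 0.00798) and its anchor Sdhd (-0.10 ± 0.03, adjusted p = 0.00314) were lower at 10 months. Sdha (-0.02 ± 0.04) and Sdhc (-0.05 ± 0.02) did not pass. Ndufa4 of complex IV had 149.6, 188 and 337 CPM at 10 months and 154, 194 and 331 CPM at 6 months, and neither it (-0.03 ± 0.03) nor Ndufa4l2 (-0.16 ± 0.08) passed.

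**Figure D1:**
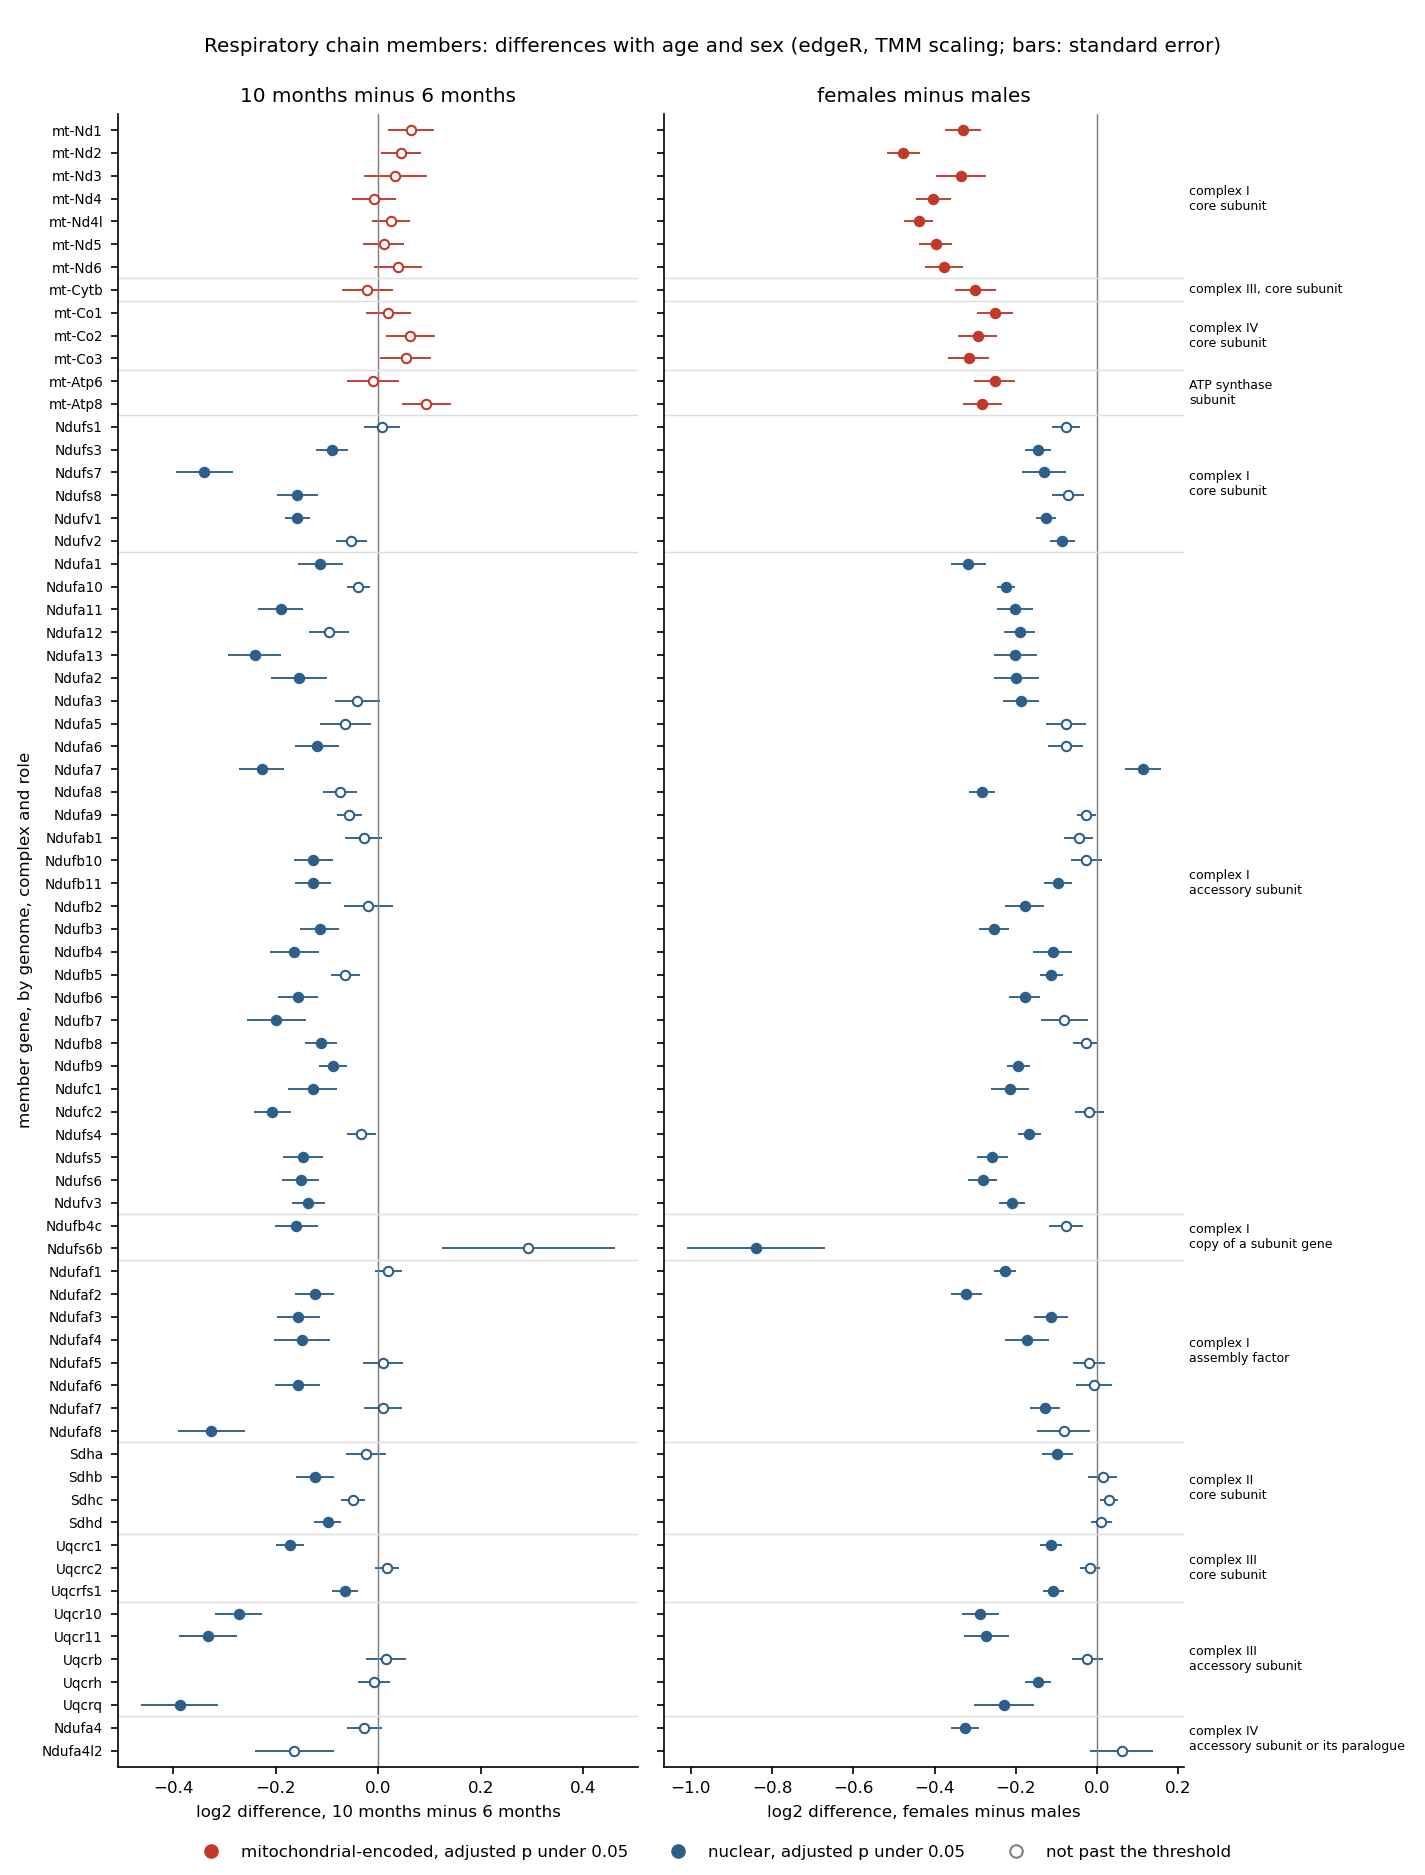
Log2 difference of tested members between 10 and 6 months (left) and between females and males (right), from edgeR with TMM scaling, with its standard error as a bar. Filled points have an adjusted p under 0.05, in red for mitochondrial-encoded and in blue for nuclear members, grouped by complex and role. With age all filled points are blue and lie to the left of 0, and 0 red points are filled; between the sexes all 13 red points are filled and lie between -0.48 and -0.25.

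None of the mitochondrial-encoded genes passed the test between the ages. mt-Nd2 of complex I had 4206, 6191 and 17015 CPM at 10 months and 4651, 6474 and 10290.3 CPM at 6 months, overlapping over nearly the whole range (log2 difference 0.04 ± 0.04). mt-Co1 had 22582, 30494 and 79249 CPM at 10 months and 23595, 29766 and 47904 CPM at 6 months (0.02 ± 0.04). mt-Cytb, which works beside the Uqcr subunits in complex III, had 6489.7, 8635 and 27159 CPM at 10 months and 6535, 9046 and 16657 CPM at 6 months (-0.02 ± 0.05, adjusted p = 0.806). The smallest p among them was that of mt-Atp8 (0.09 ± 0.05, adjusted p = 0.148), with 1063, 1485 and 3809 CPM at 10 months and 947, 1355 and 2223 CPM at 6 months. In each of these genes the highest value at 10 months belonged to the library with a mitochondrial share of 26.4%, and the other libraries of both ages overlapped.

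As a description over whole libraries, the log2 ratio of summed mitochondrial-encoded to summed nuclear FPKM had 3.94, 4.39 and 5.14 as lowest, median and highest value at 10 months and 3.99, 4.25 and 4.57 at 6 months. The ages overlapped, and the mean over groups was 0.127 higher at 10 months, with an SD within groups of 0.132. Without the 2 libraries that stood apart it was 0.117 higher (SD within groups 0.116), and without any 1 library between 0.114 and 0.135. Within females the ratio was 3.94, 4.35 and 4.61 at 10 months and 3.99, 4.19 and 4.28 at 6 months, and within males 4.29, 4.43 and 5.14 at 10 months and 4.11, 4.36 and 4.57 at 6 months. The TMM-scaled nuclear sum was 3571, 4329 and 5690.3 CPM at 10 months and 3956, 4571 and 5983 CPM at 6 months. The mitochondrial-encoded sum was 68567, 94979 and 263732 CPM at 10 months and 71908, 91449 and 157653 CPM at 6 months. The ranges of both sums overlapped between the ages. The median of the nuclear sum was 4207 CPM at 10 months and 4406 CPM at 6 months in females, and 4452 CPM at 10 months and 4715 CPM at 6 months in males, lower at 10 months in both sexes. That of the mitochondrial-encoded sum was 85409.85 CPM at 10 months and 84957 CPM at 6 months in females, but 98240.0 CPM at 10 months and 101971 CPM at 6 months in males, so its direction was not the same in both sexes.

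**Figure D2:**
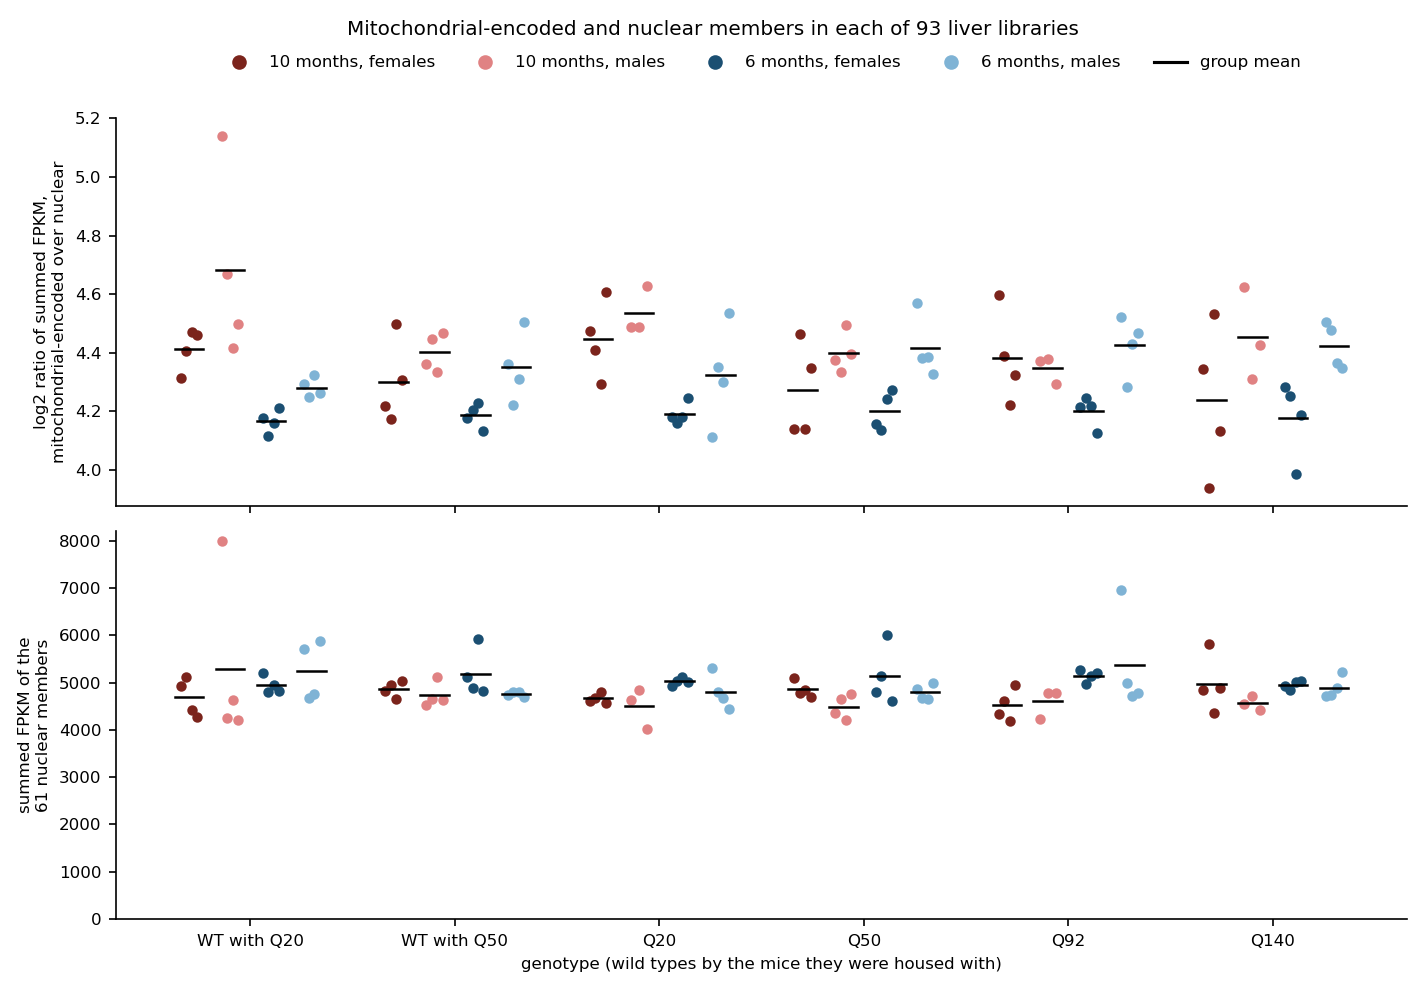
Each point is 1 of 93 libraries, by genotype or housing on the horizontal axis, with 10 months (red) left of 6 months (blue), and females (darker) left of males (lighter) at each age. The upper panel gives the log2 ratio of summed FPKM of mitochondrial-encoded over nuclear members, and the lower panel the summed FPKM of the 61 nuclear members, with the group mean as a line. The 10-month WT male housed with Q20 at 5.14 and 8002 FPKM is the highest point of both panels.

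Within females 28 nuclear members were lower at 10 months (11.2% of all genes tested were lower) and 0 were higher. Within males 9 were lower (3.55% of all genes) and 0 were higher. In males that count rests on few libraries. It was 27 without replicate 1 of the 10-month WT males housed with Q20, 24 without the 2 libraries that stood apart, and between 7 and 27 over all omissions of 1 library. In neither sex did a mitochondrial-encoded member pass (1 and 0 with an unadjusted p under 0.05 in females and males), apart from 1 in females without those 2 libraries. Over both sexes the count of 37 was 40 without them, with a median log2 difference of 0.01 for the mitochondrial-encoded members.

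Transcript length and cell markers were set beside the age difference, in which 13% of all genes tested were lower and 25.4% changed in either direction. Among other genes with an effective length of 500 to under 1000 nt 18.6% were lower at 10 months, against 22 of 31 nuclear members of that length, and among those of 1000 to under 2000 nt 16.0% were lower, against 9 of 16 members. Of 8 hepatocyte markers 1 was higher and 3 were lower, with a summed level of 67661, 111493 and 131579 CPM at 10 months and 80619, 103036 and 144011 CPM at 6 months. Of 6 lymphocyte markers 5 were higher, with a sum of 1.26, 5.71 and 48.7 CPM at 10 months and 1.19, 4.08 and 20.1 CPM at 6 months. Markers of Kupffer cells had 1 higher and 1 lower of 8, and those of endothelium, stellate cells and cholangiocytes 0 of 7, 0 of 7 and 0 of 5. The part of cell composition in the age difference was not tested.

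Promoters of nuclear members that were lower at 10 months were read from the RefSeq promoter table of GRCm38.p6, as the 250 bases before the start of each gene. Windows were found for 48 of 61 nuclear members. They were searched on both strands for the letters GCATGCG (core of the site of NRF1, a regulator of many respiratory chain genes), CCGGAAG (core of the ETS site bound by GABP), AAGGTCA (part of the site of the estrogen-related receptors) and AAGATGG (core of the YY1 site). NRF1 letters occurred in 5 windows (10.4%) of members and 3.07% of all 27025 windows, ETS letters in 8 (16.7%) and 7.05%, estrogen-related receptor letters in 3 (6.25%) and 4.05%, and YY1 letters in 0 and 4.53%. Among the 31 members with a window that were lower at 10 months 4 held NRF1 letters and 6 held ETS letters, and among the 17 others 1 and 2. The letters are a description of these windows and not a bound site. The windows of 3 such members are shown because they hold one of the motifs, in capitals, and are given in the direction of transcription:
Uqcr11, chr10:80406822-80407071, minus strand, ETS letters: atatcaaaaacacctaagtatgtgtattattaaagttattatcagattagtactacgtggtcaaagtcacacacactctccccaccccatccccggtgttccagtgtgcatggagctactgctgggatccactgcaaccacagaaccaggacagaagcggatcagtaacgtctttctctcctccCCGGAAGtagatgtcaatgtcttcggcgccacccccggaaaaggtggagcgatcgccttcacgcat
Ndufaf8, chr11:120098684-120098933, plus strand, ETS letters: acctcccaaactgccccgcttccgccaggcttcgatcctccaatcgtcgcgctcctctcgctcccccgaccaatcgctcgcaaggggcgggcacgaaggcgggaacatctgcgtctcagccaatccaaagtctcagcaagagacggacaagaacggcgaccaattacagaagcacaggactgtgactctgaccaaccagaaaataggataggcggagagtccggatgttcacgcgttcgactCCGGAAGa
Ndufa11, chr17:56717512-56717761, plus strand, NRF1 letters: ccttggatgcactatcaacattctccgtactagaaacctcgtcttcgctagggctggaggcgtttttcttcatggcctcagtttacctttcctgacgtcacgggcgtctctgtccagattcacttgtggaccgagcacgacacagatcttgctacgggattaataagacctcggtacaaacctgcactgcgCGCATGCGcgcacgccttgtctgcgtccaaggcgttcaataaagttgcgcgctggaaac
The first base of the ETS letters lay at -66 in Uqcr11 and at -8 in Ndufaf8, counted back from the start. In Ndufa11 the NRF1 letters were read at -59 and -58, once on each strand of the same place. These positions come from the reference, since no genome build of the deposited counts is stated.

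Females had lower levels than males of all 13 mitochondrial-encoded members. In the same fit, 13 of 13 were lower, where 32.5% of all genes tested were lower and 34.2% higher in females. Their median log2 difference was -0.33, with a range of -0.48 to -0.25, and each was lower in 12 of 12 pairs of genotype and age. On the scale of the deposited FPKM, which divides by all counts of a library, 10 of the 13 were lower, with a median of -0.14. Of the 15249 genes tested there 2226 were lower, and the median of all genes moved to 0.15 from 0.01 under TMM scaling. The median of the mitochondrial-encoded members minus that of all genes was -0.34 under TMM scaling and -0.29 on the FPKM scale, and 13 of 13 members lay below the median of all genes under both.

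Complex I genes led. mt-Nd2 had 4206, 5500.0 and 6621 CPM in females and 6049, 7242 and 17015 CPM in males (log2 difference -0.48 ± 0.04, adjusted p = 7.32e-18), a decrease of 28.1%. mt-Nd4l had 429.6, 561 and 685 CPM in females and 585, 749 and 1446 CPM in males (-0.44 ± 0.04, adjusted p = 6.41e-18). All 48 female libraries lay under the male median in both genes, and the ranges overlapped at their ends. The level of mt-Nd4l depends on how reads were divided between it and the pseudogene Gm10222. mt-Nd5 (-0.40 ± 0.04), mt-Nd4 (-0.40 ± 0.04), mt-Nd6 (-0.38 ± 0.05), mt-Nd3 (-0.33 ± 0.06) and mt-Nd1 (-0.33 ± 0.04) followed. mt-Nd6, read from the other strand, had 572, 835 and 1223 CPM in females and 733, 1075 and 2431 CPM in males. The genes of the other complexes had smaller differences, which were not tested against those of complex I. mt-Co3 (-0.32 ± 0.05), mt-Cytb (-0.30 ± 0.05), mt-Co2 (-0.29 ± 0.05) and mt-Atp8 (-0.28 ± 0.05) were followed by mt-Atp6 (-0.25 ± 0.05, adjusted p = 1.1e-05). mt-Co1 had 22582, 28164 and 34994 CPM in females and 27983, 32625 and 79249 CPM in males (-0.25 ± 0.04, adjusted p = 5.58e-07), with 43 of 48 female libraries under the male median. Without the 2 male libraries that stood apart all 13 stayed lower, with a median log2 difference of -0.25.

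Of the 60 nuclear members 39 were lower and 1 was higher in females under TMM scaling, with a median log2 difference of -0.13, against 0.01 for all genes. On the FPKM scale 24 were higher and 11 lower, with a median of 0.05. Of the 15249 genes tested on that scale 8754 were higher and 2226 lower. The direction of the nuclear members between the sexes thus depends on the scaling. Set against the median of all genes, 55 of 60 members lay below it under TMM scaling and 53 of 60 on the FPKM scale with a pseudocount of 0.1. That count was 41 of 60 with a pseudocount of 1, and 30 of 60 with no filter on low FPKM values. Among other genes of 500 to under 1000 nt 39.2% were lower in females under TMM scaling (median -0.09), against 18 of 31 nuclear members (median -0.11). Among those of 1000 to under 2000 nt 35.7% were lower (median -0.01), against 10 of 16 members (median -0.11). The part of transcript length in the sex difference was not tested.

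**Figure D3:**
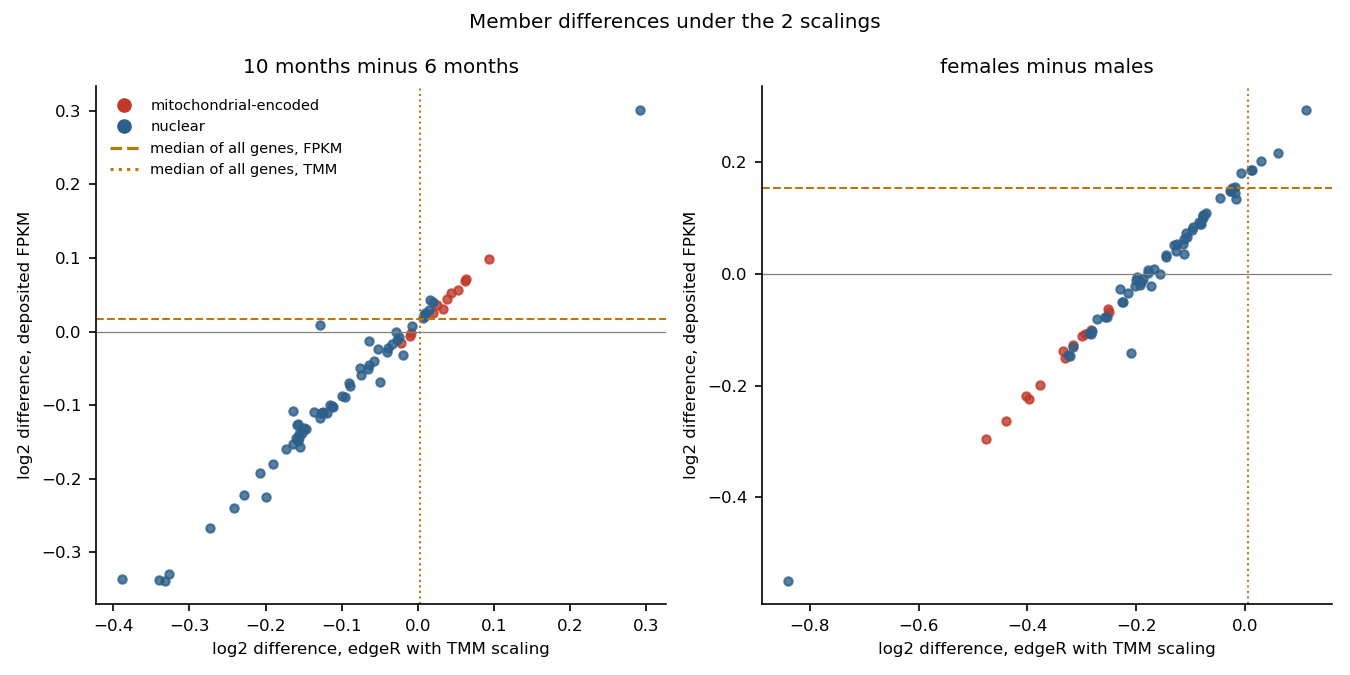
Log2 difference of each member under TMM scaling of the counts (horizontal axis) and on the deposited FPKM scale (vertical axis), for age on the left and sex on the right. The orange lines mark the median of all genes on each scale. For age the points lie close to a line through 0, whereas for sex the FPKM median of all genes is at 0.15, with 53 of 60 nuclear points below that line and all 13 mitochondrial-encoded points below it.

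Among the accessory subunits of complex I 20 of 29 were lower in females. Ndufa10 of the membrane arm had 78.4, 94.7 and 109 CPM in females and 97.0, 108 and 137 CPM in males (-0.22 ± 0.02, adjusted p = 4.45e-14), with 47 of 48 female libraries under the male median. Ndufa8, on the side of the intermembrane space, had 39.8, 45.4 and 60.6 CPM in females and 46.9, 56.4 and 77.2 CPM in males (-0.28 ± 0.03, adjusted p = 3.31e-12), with 45 of 48 under the male median. Both overlapped between the sexes. Ndufa1 (-0.32 ± 0.04), Ndufs6 (-0.28 ± 0.04), Ndufs5 (-0.26 ± 0.04) and Ndufb3 (-0.25 ± 0.04) showed decreases of 16.2% to 19.7%. Ndufa7 was the member that was higher in females, with 33.7, 48.1 and 66.2 CPM in females and 27.6, 43.9 and 72.5 CPM in males (0.11 ± 0.04, adjusted p = 0.0212). It overlapped widely, and did not pass without the libraries that lack an index code. Of the nuclear core subunits 5 of 7 were lower, among them Ndufs3 (-0.15 ± 0.03), while Ndufs8, at -0.07 ± 0.04, did not pass. These differences are under TMM scaling. On the FPKM scale Ndufa10 stood at -0.05, Ndufa8 at -0.11, Ndufa1 at -0.13 and Ndufa7 at 0.29. Ndufv1 was lower by -0.13 ± 0.02 under TMM scaling and stood at 0.05 on the FPKM scale. Ndufs4, an accessory subunit, was lower by -0.17 ± 0.03 under TMM scaling and stood at 0.0078 on the FPKM scale.

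The promoter window of Ndufa8 held NRF1 letters and is shown because the gene was among those with the smallest p between the sexes, again with the letters in capitals (RefSeq table of GRCm38.p6):
Ndufa8, chr2:36049339-36049588, minus strand, NRF1 letters: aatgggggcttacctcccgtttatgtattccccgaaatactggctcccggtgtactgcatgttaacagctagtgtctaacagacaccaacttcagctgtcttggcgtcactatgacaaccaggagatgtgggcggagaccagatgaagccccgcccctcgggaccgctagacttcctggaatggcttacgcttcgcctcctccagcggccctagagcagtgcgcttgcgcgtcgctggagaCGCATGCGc
The letters were read at -9 and -8 before the start, once on each strand.

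Of the assembly factors 5 of 8 were lower in females, led by Ndufaf1, which acts in building the membrane arm, with 16.0, 20.9 and 26.4 CPM in females and 19.8, 24.9 and 30.03 CPM in males (-0.23 ± 0.03, adjusted p = 9.32e-12). Ndufaf2, a factor of late assembly, was at -0.32 ± 0.04. In complex III 2 of 3 core and 4 of 5 accessory subunits were lower, among them Uqcr10, with 33.6, 51.7 and 69.0 CPM in females and 40.6, 61.2 and 103 CPM in males (-0.29 ± 0.05, adjusted p = 5.78e-08). Complex II had 1 of 4 lower, which is near the share of all genes tested that were lower in females (32.5%). Sdha was lower (-0.10 ± 0.04, adjusted p = 0.0229), while Sdhb (0.01 ± 0.04), Sdhc (0.03 ± 0.02) and Sdhd (0.01 ± 0.03) did not pass. Ndufa4 was lower with 149.6, 172 and 219 CPM in females and 187, 209.6 and 337 CPM in males (-0.32 ± 0.03, adjusted p = 2.67e-13), and 47 of 48 female libraries lay under the male median. These differences too are under TMM scaling. On the FPKM scale Ndufa4 stood at -0.15, Ndufaf1 at -0.05 and Ndufaf2 at -0.15. The copy Ndufs6b was lower (-0.84 ± 0.17), at 0.104 CPM in the median female and 0.180 CPM in the median male, which are few counts per library. Ndufs6b is 96.6% identical to Ndufs6 over 348 bases and had 0.343% of its counts, so its level depends on how reads were divided.

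**Figure D4:**
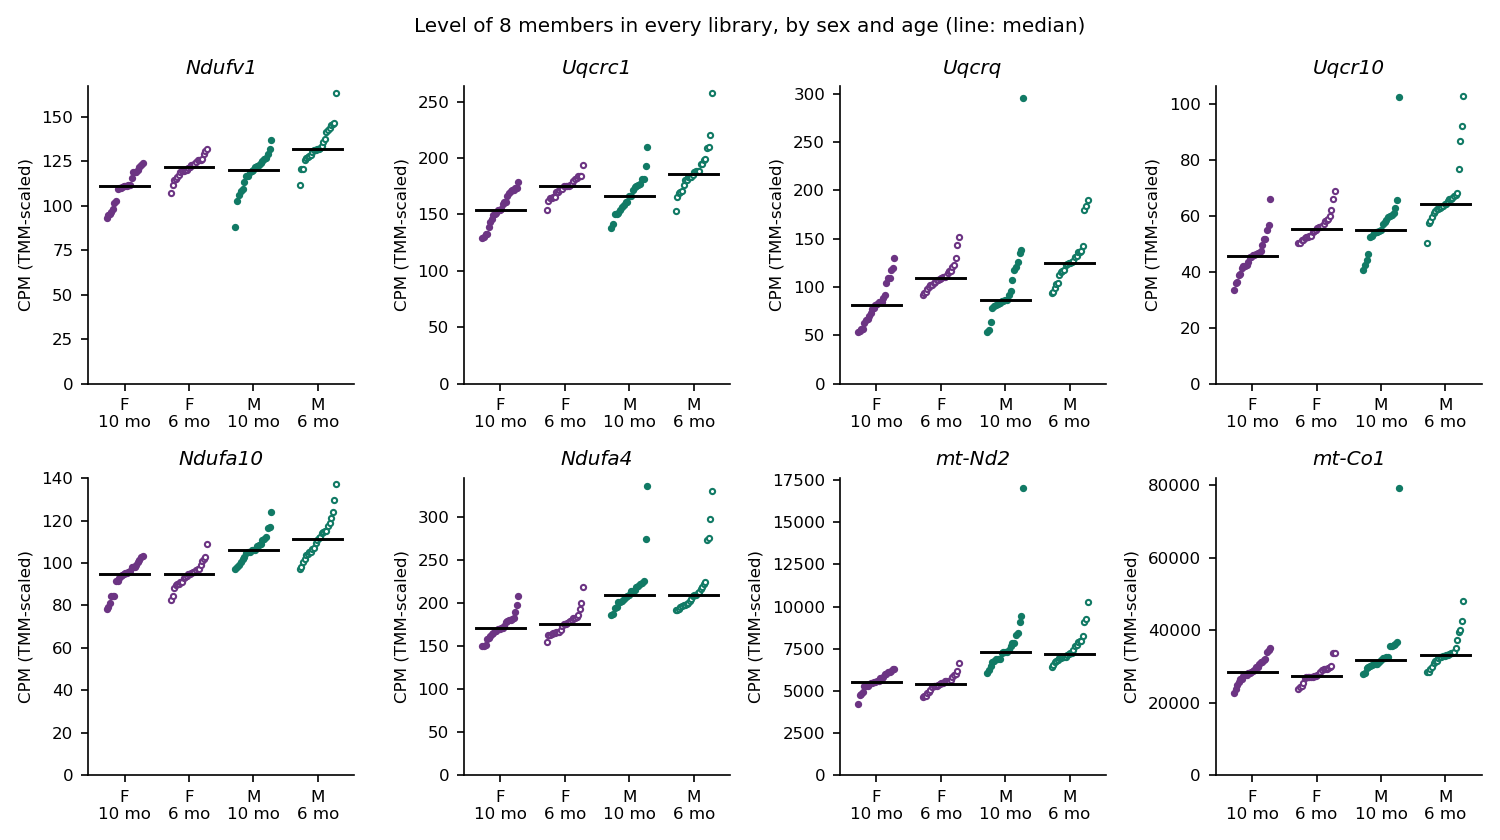
TMM-scaled CPM of 8 members in each of 93 libraries, by sex (females F, males M) and age (10 and 6 months, mo), with the median of each group as a line. In the upper row (Ndufv1, Uqcrc1, Uqcrq, Uqcr10) the 10-month medians lie below the 6-month medians in both sexes; in the lower row (Ndufa10, Ndufa4, mt-Nd2, mt-Co1) the female medians lie below the male medians at both ages, and the male library at 17015 CPM of mt-Nd2 stands alone.

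The log2 ratio of mitochondrial-encoded to nuclear FPKM was 3.94, 4.23 and 4.61 in females and 4.11, 4.38 and 5.14 in males, overlapping, with a difference of -0.156 between the means of groups (SD within groups 0.132). Without the 2 libraries that stood apart it was -0.140. At each age the 13 mitochondrial-encoded members were lower in females, beside 33 nuclear members at 10 months (27.4% of all genes lower) and 31 at 6 months (26.8% of all genes lower). On the FPKM scale with a pseudocount of 0.1, 5 mitochondrial-encoded and 7 nuclear members were lower at 10 months, and 7 and 6 at 6 months. Over both ages 2226 of the 15249 genes tested on that scale were lower. With the L number of the library name as a covariate 6 mitochondrial-encoded and 15 nuclear members were lower at 10 months. The number over all genes is not given here for that fit or for the FPKM scale at a single age. The smaller counts are thus not set against all genes. Markers of other cell types were counted beside all genes, of which 34.2% were higher and 32.5% lower in females. All 8 Kupffer cell markers were higher in females, with a sum of 239.8 to 651 CPM in females and 81.3 to 456 CPM in males. So were 6 of 7 endothelial markers (167 to 406 CPM in females, 84.9 to 325 CPM in males), 5 of 7 stellate cell markers (246 to 477 CPM in females, 151 to 326 CPM in males) and 6 of 6 lymphocyte markers (3.34 to 48.7 CPM in females, 1.19 to 20.1 CPM in males). Of 5 cholangiocyte markers 4 were higher and 1 lower (32.9 to 119.8 CPM in females, 28.2 to 116 CPM in males). Of 8 hepatocyte markers 2 were higher and 4 lower (102999 to 144011 CPM in females, 67661 to 113506 CPM in males). Of 3 red cell markers 2 were lower, Alas2 (-3.25 ± 0.05), the haem synthesis enzyme of red cell precursors, and the globin gene Hba-a1 (-0.22 ± 0.09). The globin gene Hbb-bs (-0.11 ± 0.09) did not pass, so the globins did not follow Alas2 in size. The red cell markers summed to 94.9 to 279 CPM in females and 155 to 356 CPM in males. Of 8 tested brain markers 3 were higher, Syt1 (0.61 ± 0.06), Gfap (0.56 ± 0.11) and Mbp (0.49 ± 0.21), which is near the share of all genes. Their sum was 16.1 to 127 CPM in females and 9.13 to 45.5 CPM in males over all brain markers. These sums are not TMM-scaled, none of the markers of these lists was at 0 in all libraries, and the part of cell composition in the sex difference was not tested.

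The sex difference changed with age in 1 of 73 members (1.54% of all genes tested). Ndufaf4, an assembly factor of complex I, had 15.3, 21.6 and 34.7 CPM in females and 22.4, 28.5 and 42.1 CPM in males at 10 months. At 6 months it had 17.9, 30.6 and 40.4 CPM in females and 19.4, 28.1 and 35.5 CPM in males. The female libraries of 10 months were thus low as a whole, with overlapping ranges, but not in every group. Each 10-month library of Q20 females and of WT females housed with Q20 lay under all 6-month libraries of its group. In WT females housed with Q50 the ages overlapped at their ends. In Q140, Q50 and Q92 females they overlapped widely, with 16.2 to 34.7 CPM at 10 months and 17.9 to 28.3 CPM at 6 months in Q92. A difference between genotypes was not tested. Over all groups the interaction was -0.42 ± 0.11 (adjusted p = 0.0268). It did not pass without replicate 1 of the 10-month Q92 males, where it was -0.39. Between the ages Ndufaf4 was lower in females (-0.36, adjusted p = 0.000243) and at 0.06 in males, where it did not pass.

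CAG length and the knock-in alleles gave no call among the members. Of the 73 members tested 0 passed in Q140 against Q20 at 10 months (0.440% of all genes tested passed) or at 6 months (0.0558%), and the same held in DESeq2. At an unadjusted p under 0.05 there were 5 and 2. At 6 months 1892 of 16126 genes were under that p. For 10 months the number over all genes is not given here, so unadjusted counts of that age are no result about the members. The median log2 difference at 10 months was -0.17 for mitochondrial-encoded and -0.07 for nuclear members, and at 6 months -0.0049 and -0.06. The smallest p at 10 months was that of Ndufaf1, with 16.0, 22.3 and 25.9 CPM in 7 Q140 libraries and 20.6, 25.9 and 30.03 CPM in 7 Q20 libraries. Its ranges overlapped (-0.17 ± 0.07, adjusted p = 0.276). mt-Nd1 had 3999.8, 4972 and 6323 CPM in Q140 and 5544, 6288 and 7282 CPM in Q20 mice of that age (-0.27 ± 0.12, adjusted p = 0.322), and the ranges overlapped there too. Ndufa10 (-0.15 ± 0.06) and Ndufaf5 (-0.25 ± 0.10) were the next, and Ndufaf5 stood at 0.02 when the wild types of both housings took the place of Q20. At 6 months Ndufa9 stood at -0.12 ± 0.06 (adjusted p = 0.392). The Q140 difference changed with age in 0 members (0.0682% of all genes) and differed between the sexes in 0 (0.124%).

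In Q92 against Q20 mice 0 members passed at 10 months (2.6% of all genes tested passed), with medians of -0.17 for mitochondrial-encoded and -0.11 for nuclear members. An unadjusted p under 0.05 was reached by 17, a count without the number over all genes beside it. Ndufaf1 (19.6, 21.9 and 23.5 CPM in 7 Q92 libraries, 20.6, 25.9 and 30.03 CPM in 7 Q20 libraries) led with -0.21 ± 0.07 (adjusted p = 0.0698), followed by Ndufaf5 (-0.30 ± 0.10), Uqcrfs1 (-0.18 ± 0.06) and Ndufab1 (-0.26 ± 0.10), the acyl carrier subunit. Without the 2 libraries that stood apart, neither of which is in these groups, 4 members passed, and without replicate 2 of the 10-month Q92 males 2 passed. At 6 months 0 passed (0.00620% of all genes), and 2 had an unadjusted p under 0.05, where 1468 of 16126 genes did. The medians of that age had the other sign, 0.13 for mitochondrial-encoded and 0.06 for nuclear members. That group holds the Q92 male with 15.2% mitochondrial counts.

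Against wild types of their own housing, 0 members passed in Q20 mice at 10 months (0.00620% of all genes) and at 6 months (0.00620%), with 9 and 0 at an unadjusted p under 0.05. In Q50 mice 0 passed at 10 months (0.0124%) and at 6 months (0.00620%), with 2 and 0. Q20 mice of 10 months had a median of -0.16 for mitochondrial-encoded members, in a comparison whose wild types hold the library with 26.4% mitochondrial counts, and -0.01 for nuclear members. The trend over the CAG length of Q20, Q50, Q92 and Q140, scaled to the step between 20 and 140, passed in 0 members at 10 months (0.329% of all genes) and at 6 months (0.0248%). At an unadjusted p under 0.05 the trend had 1 member at 6 months, where 1848 of 16126 genes were. At 10 months it had 6, a count without the number over all genes beside it. Its medians were -0.14 and -0.07 for mitochondrial-encoded and nuclear members at 10 months and 0.03 and -0.03 at 6 months. The comparison of Q20 with wild types and the trend share Q20 libraries with each other and with the comparisons of Q140 and Q92, and the trend also uses the Q50 libraries.

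Wild types housed with Q50 were compared with wild types housed with Q20, which differ in no labelled genotype. At 10 months 1 member passed (1.90% of all genes tested passed), and at 6 months 0 (0.0186%). At 6 months 0 members had an unadjusted p under 0.05, where 869 of 16126 genes did. The member that passed at 10 months was mt-Nd3 of complex I. Female wild types had 660.3, 740.5, 851 and 732 CPM when housed with Q50 and 807, 1010.1, 819 and 819.6 CPM when housed with Q20. Male wild types had 917, 833, 945 and 823 CPM when housed with Q50 and 3517, 1072, 886 and 899 CPM when housed with Q20. The value of 3517 CPM stands alone, in the library with 26.4% mitochondrial counts, and the other values of both housings overlap. The log2 difference was -0.53 ± 0.15 (adjusted p = 0.0389), and -0.16 and not past the threshold without that library, when 0 members passed. The 13 mitochondrial-encoded members had a median of -0.25 and the nuclear members one of -0.03. Over omissions of 1 library the count of calls ran between 0 and 7, with 7 reached without replicate 4 of the 10-month WT males housed with Q20.

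**Figure D5:**
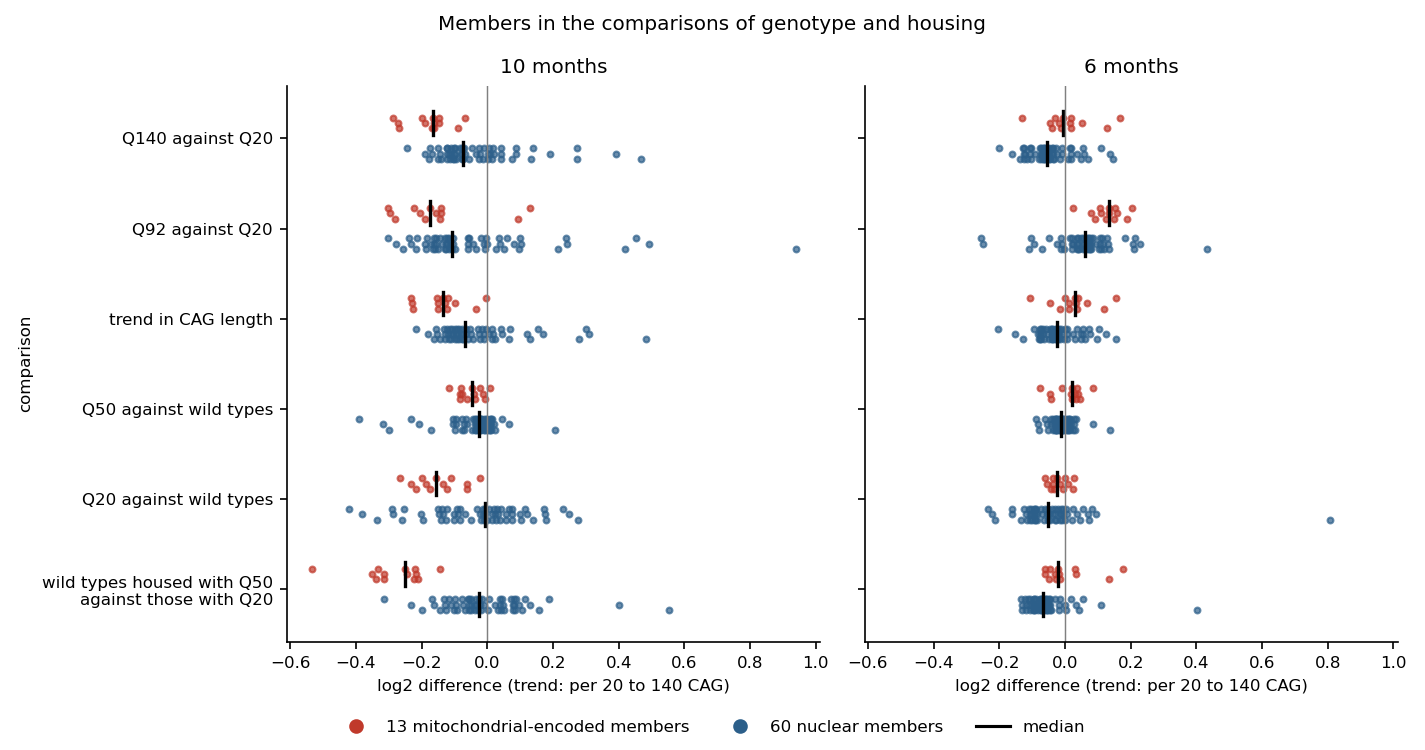
Log2 difference of each mitochondrial-encoded (red) and nuclear (blue) member in the comparisons of CAG length, knock-in and housing, at 10 months (left) and 6 months (right), with the median as a line. At 10 months the red medians lie at -0.25 to -0.05 and at 6 months at -0.02 to 0.13; 1 of all these points, mt-Nd3 at -0.53, passed the threshold.

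Other genes of the same pathway were counted from lists, and the calls below come from the same fit with p-values adjusted over all genes. Of all genes tested 13% were lower and 25.4% changed in either direction at 10 months, and in females 32.5% were lower and 34.2% higher. Nuclear subunits of complex IV had 5 of 13 lower at 10 months, among them Cox7c (-0.33 ± 0.04) and Cox6a1 (-0.23 ± 0.05), and 11 of 13 lower in females, among them Cox7a2 (-0.38 ± 0.04). Nuclear subunits of ATP synthase had 7 of 16 lower at 10 months, among them Atp5l (-0.23 ± 0.03) and Atp5d (-0.24 ± 0.04), and 12 lower and 1 higher in females. The mitochondrial rRNAs, which come from the same precursors as the mitochondrial mRNAs, were lower at 10 months, mt-Rnr2 by -0.35 ± 0.08 (adjusted p = 0.000604) and mt-Rnr1 by -0.32 ± 0.08 (adjusted p = 0.00115). The sample titles say mRNA, and these rRNAs took 0.125% to 0.374% of counts in the libraries that stood apart by mitochondrial share or brain markers. Age and library series cannot be told apart in this decrease. In females mt-Rnr1 was lower (-0.17 ± 0.08, adjusted p = 0.044) and mt-Rnr2 did not pass. Of 31 tested genes for transcription, processing and upkeep of mitochondrial DNA 11 were higher and 2 lower at 10 months, with Polrmt, the mitochondrial RNA polymerase, lower (-0.18 ± 0.04) and the termination factor family gene Mterf4 higher (0.18 ± 0.04). In females 6 were higher and 16 lower, led by the exonuclease Rexo2 (-0.72 ± 0.03). Of 14 regulators of mitochondrial genes 2 were lower at 10 months, the nuclear receptor Esrra (-0.32 ± 0.06) and the deacetylase Sirt3 (-0.13 ± 0.03), and 8 were higher in females, among them the nuclear receptor Esrrg (0.88 ± 0.10) and the coactivator Ppargc1a (0.42 ± 0.08). Assembly factors of complexes I to III outside the rule had 3 higher and 3 lower of 19 at 10 months and 3 higher and 12 lower in females, where Foxred1 (-0.31 ± 0.03), Ecsit (-0.28 ± 0.02) and Timmdc1 (-0.22 ± 0.03) led. At 10 months the 2 of 14 regulators and 3 of 19 assembly factors that were lower are near the share of all genes. These sex differences are on the TMM scale. On the FPKM scale the median gene is at 0.15.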

How the data were processed

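Liver RNA was extracted with a Qiagen miRNeasy kit and libraries were made by Illumina protocols, per the labels' protocols. CASAVA 1.8.2 is named in the submitters' processing notes; aligner, counter, genome build, annotation and strand are not given in the sources used here. The authors deposited expected counts and FPKM per Ensembl gene for the 93 libraries, which summed to between 28752184 and 46776898 expected counts. Of the counts above 0, 26.0% were not whole (tolerance 0.001), and counts were rounded. Symbols came from GENCODE M21 (GRCm38), joined on the Ensembl ID, for 37607 genes, and 1572 had none. Members and lists were chosen with earlier results of these data known.

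The quasi-likelihood test of edgeR 4.0.16 (R 4.3.3) was fitted on all libraries with a mean for each of the 24 groups, TMM factors (0.847 to 1.156) and filterByExpr (minimum count 10, total 15), and p-values were adjusted by Benjamini-Hochberg over the 16126 genes that passed. Sexes, ages and genotypes were averaged with equal weight. A standard error is the log2 difference over the square root of its F. CPM are TMM-scaled, except those of marker sums and Htt, which use the deposited counts unscaled. Overlapping mitochondrial sequences were read from the GENCODE transcripts and promoters from the RefSeq table. Alternatives were DESeq2 1.42.0, other scaling factors, no filter, the replicate block, a fit per age, limma 3.58.1 on log2(FPKM + 0.1) and log2(FPKM + 1), where the pseudocount understates changes of low genes, with or without a mean FPKM of at least 0.1, 3 surrogate variables (sva 3.50.0), the L number in the library name, wild types in place of Q20, and leaving out the 16 libraries whose name lacks an index code or each library in turn, the last with the dispersion trend of the full fit. Comparisons within a sex or an age, the change of the sex difference with age, and leaving out 2 or 5 libraries that stood apart were chosen after seeing the data. The scripts were tested on simulated data. Any member could be named, in each comparison up to 13 mitochondrial-encoded and 15 nuclear ones by the smallest p, with the 5 highest and lowest levels. The values of 1 member are not reported here, though it is in the counts. Others were named for a role or as a member that did not pass, after their values were seen. No replicates held identical values (0 of 135 pairs, chi-square per degree of freedom 25.4 to 581). Deviations of same-numbered libraries had a mean correlation of 0.007 over 1038 pairs from all groups, and those of differently numbered ones -0.0016. The mean showed no pairing by number over all groups and cannot exclude it between some of them.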

Additional observations from a re-analysis of the deposited data

Results flagged for a closer look

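Of 63 pairs of a group and a library-wide measure (21 groups of 4, 3 measures) 5 held a library far from the other 3 by Dixon's test, which chance flags in about 1 in 20 groups. Replicate 1 of the 10-month WT males housed with Q20 had 26.4% of its counts in mitochondrial-encoded members, with 9.16%, 9.48% and 10.4% in the other 3, and a nuclear sum of 8002 FPKM, with 4217, 4261 and 4636 FPKM in the others. Replicate 1 of the 6-month Q92 males had 15.2% of its counts in these members, with 9.33%, 9.86% and 10.3% in the other 3, and a nuclear sum of 6963 FPKM, with 4717, 4780.2 and 5000.5 FPKM in the others. Replicate 1 of the 6-month Q50 males had 11.1%, with 9.33%, 9.36% and 9.64% in the other 3. In the first 2 libraries the sums of both genomes were high together.

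Ndufaf4 differed between the sexes by an amount that changed with age, with an interaction of -0.42 on the log2 scale in the test of edgeR.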

How the results depend on the processing

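Of the counts of calls and whole-library ratios 338 values under an alternative kept within 1.5 times or 1 SD of those reported and 44 did not, and of the single members 739 kept their call and direction, 36 lost the call, 4 gained it and 7 reversed. DESeq2, other scaling factors and scaling without mitochondrial genes moved none of them out of range, and the calls lost or moved below have causes that were not tested. The replicate block gave 38 nuclear members lower at 10 months (37 without it) and 39 nuclear and 13 mitochondrial-encoded members lower in females, and no named member changed its call. The age difference could not be had from separate fits per age, with or without the L number, and no library passed the planned threshold on brain transcripts (0 over 10 times the median), so that omission was not run.

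Members called in Q92 against Q20 at 10 months were 1 with 3 surrogate variables and 4 without the 2 or 5 libraries that stood apart, with 0 to 2 over omissions of 1 library. For wild types by housing at 10 months the count was 0 with no filter, a separate fit per age, each FPKM fit, 3 surrogate variables, the L number, no libraries without index code, and without 2 or 5 libraries, and 0 to 7 over omissions of 1 library. The change of the sex difference with age had 0 to 1. Nuclear members lower at 10 months in females were 18, 18 and 14 on FPKM (pseudocount 0.1, pseudocount 1, and no filter), with 1 mitochondrial-encoded member called without 2 libraries. In males nuclear members lower were 25 with 3 surrogate variables, 18 without libraries lacking an index code, 24 without 2 and 19 without 5 libraries, and 7 to 27 over omissions of 1 library.

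On FPKM, in the same order of fits, nuclear members lower in females were 11, 11 and 8, and higher 24, 24 and 24. Of all genes in these fits 2226 of 15249, 2234 of 15249 and 2432 of 26709 were lower, and 8754, 8722 and 9903 higher. Mitochondrial-encoded members lower were 7 with no filter. At 10 months the mitochondrial-encoded ones lower were 5, 5 and 5 and the nuclear ones 7, 8 and 5, and with the L number as covariate 6 and 15. At 6 months the mitochondrial-encoded ones were 7, 7 and 6 and the nuclear ones 6, 6 and 6. The numbers over all genes at a single age are not given here for the FPKM fits or the L number. Nuclear members higher in females were 4 with 3 surrogate variables and 0 without libraries lacking an index code. Ndufs4 reversed between the sexes to 0.0078, 0.0074 and 0.0078 and Ndufv1 to 0.0538, 0.0532 and 0.0538, and Ndufaf5 in Q140 at 10 months to 0.0191 with wild types in place of Q20.

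Ndufs6b and Ndufa11b had the lowest counts among the members, and the effect of depth on the other members was not tested.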
